A study of Mus musculus with 16 samples.

Results

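Potassium channel genes were taken as all genes whose single symbol in the array annotation begins with Kcn. The rule found 84 of the 18168 genes measured, carried by 167 of 34843 probe sets. Of these, 81 code for channel subunits or their accessory proteins, and 3 are noncoding transcripts (Kcnq1ot1, Kcnmb4os1 and Kcnmb4os2). The largest subfamilies were the inward rectifiers Kcnj with 15 genes, the tandem-pore leak channels Kcnk with 12, the Shaker-type channels Kcna with 7 and the ether-a-go-go type channels Kcnh with 6. No Kcnb gene was among the 84.

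The arrays compared so-called deletor mice, which overexpress a mutant form of the mitochondrial DNA helicase Twinkle and serve as a model of progressive external ophthalmoplegia, with wild-type (wt) mice. There were 16 arrays in 4 groups of 4, namely mutant and wild-type hippocampus and mutant and wild-type cerebellum. In both regions the mutants with replicate numbers 1 to 4 were 24, 24, 21 and 21 months old, and the wild types 26, 24, 21 and 23 months. No label used here states the strain, the sex, the promoter that drives the transgene, or whether both regions came from the same animals. For hippocampus the labels disagree, since a free-text entry says cerebellum and the title, source and tissue entries say hippocampus, and the last 3 were followed.

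Potassium channels let potassium leave or enter a cell along its gradient, and so set the resting potential of neurons, end their action potentials and limit their firing. Most are built from pore-forming subunits, among them the voltage-gated families Kcna, Kcnc, Kcnd, Kcnh and Kcnq, the inward rectifiers Kcnj, the tandem-pore leak channels Kcnk and the calcium-activated channels Kcnma1 and Kcnn. Others are silent pore subunits that act only in mixed channels (Kcnf, Kcng, Kcns, Kcnv) or accessory proteins (Kcnab, Kcne, Kcnip, Kcnmb) that set where and how fast a channel opens.

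All values below are the deposited log-scale values, averaged over the probe sets of a gene. They were taken as log2, but the base is not stated, and if it was e each difference has to be multiplied by 1.44. They had been centred, so that a value is the distance of an array from the middle array of its region. No expression level is left in them, which means that levels cannot be compared between genes or regions and the tissue labels cannot be checked by the presence or absence of markers. Twnk, the mouse gene for Twinkle, lay at 0.03, -0.01, 0.01 and 0.02 in mutant hippocampus, against -0.09, -0.11, -0.06 and 0.05 in wild-type hippocampus, a difference of 0.06 (SE 0.05, limma adjusted p = 0.766). In the cerebellum its difference was also 0.06 (SE 0.05, limma adjusted p = 0.915). Whether this probe set reads the transgene could not be established, so the values are no check of the labels or of the overexpression.

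Some arrays stood apart from the others of their region. Wild-type hippocampus replicate 1, from the oldest animal, averaged 2.33 over the 11 of 12 listed cerebellar granule neuron markers measured and 1.39 over 8 of 11 Purkinje cell markers, while hippocampal pyramidal neuron markers (10 of 10) averaged -0.73 there. Mutant hippocampus replicate 1 averaged 0.75 for the granule neuron markers and 1.09 for 12 markers of meninges and fibroblasts. Mutant hippocampus replicate 4 averaged 1.62 over 13 of 15 choroid plexus markers, and mutant cerebellum replicate 4 averaged -1.05 over the same markers. The part of these cell types in the channel results was not tested. Leaving out 1 array at a time moved the genotype difference by over 1.5 times or turned its sign for 74 of the 84 potassium channel genes in the hippocampus and for 75 in the cerebellum. Those for which no single array did so included Kcnip4, Kcnd2, Kcnj2, Kcna1, Kcnk13 and Kcnd1 in the hippocampus and Kcna1, Kcna3, Kcnq1 and Kcnip4 in the cerebellum. The same count over all genes is not given here, so the counts cannot be read as particular to potassium channel genes.

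No potassium channel gene passed the test of genotype in either region. With limma and Benjamini-Hochberg adjustment over all genes, 0 of 84 had an adjusted p under 0.05 in the hippocampus and 0 of 84 in the cerebellum, where 0% of all genes passed as well. At an unadjusted p under 0.05, 9 of 84 (10.7%) were counted in the hippocampus, against 8.03% of all genes, and 1 of 84 (1.19%) in the cerebellum, against 5.39% of all genes (3.15% higher and 2.24% lower). The hippocampal 9 were 2 higher in mutants (2.38%, against 5.28% of all genes) and 7 lower (8.33%, against 2.75% of all genes). The median difference of the 84 genes was -0.00 in both regions, against 0.02 for all genes in the hippocampus and 0.01 in the cerebellum. Differences of potassium channel genes were wider in the hippocampus, where the median absolute difference was 0.0847 against 0.0616 for all genes, than in the cerebellum, where it was 0.0555 for both sets. Their median absolute value was also wider on wild-type hippocampus replicates 1 (0.170, against 0.0877 for all genes) and 3 (0.0920, against 0.0594). On wild-type hippocampus replicate 2 it was narrower (0.0408, against 0.0490). The part of single arrays in the wider differences was not tested.

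**Figure D1:**
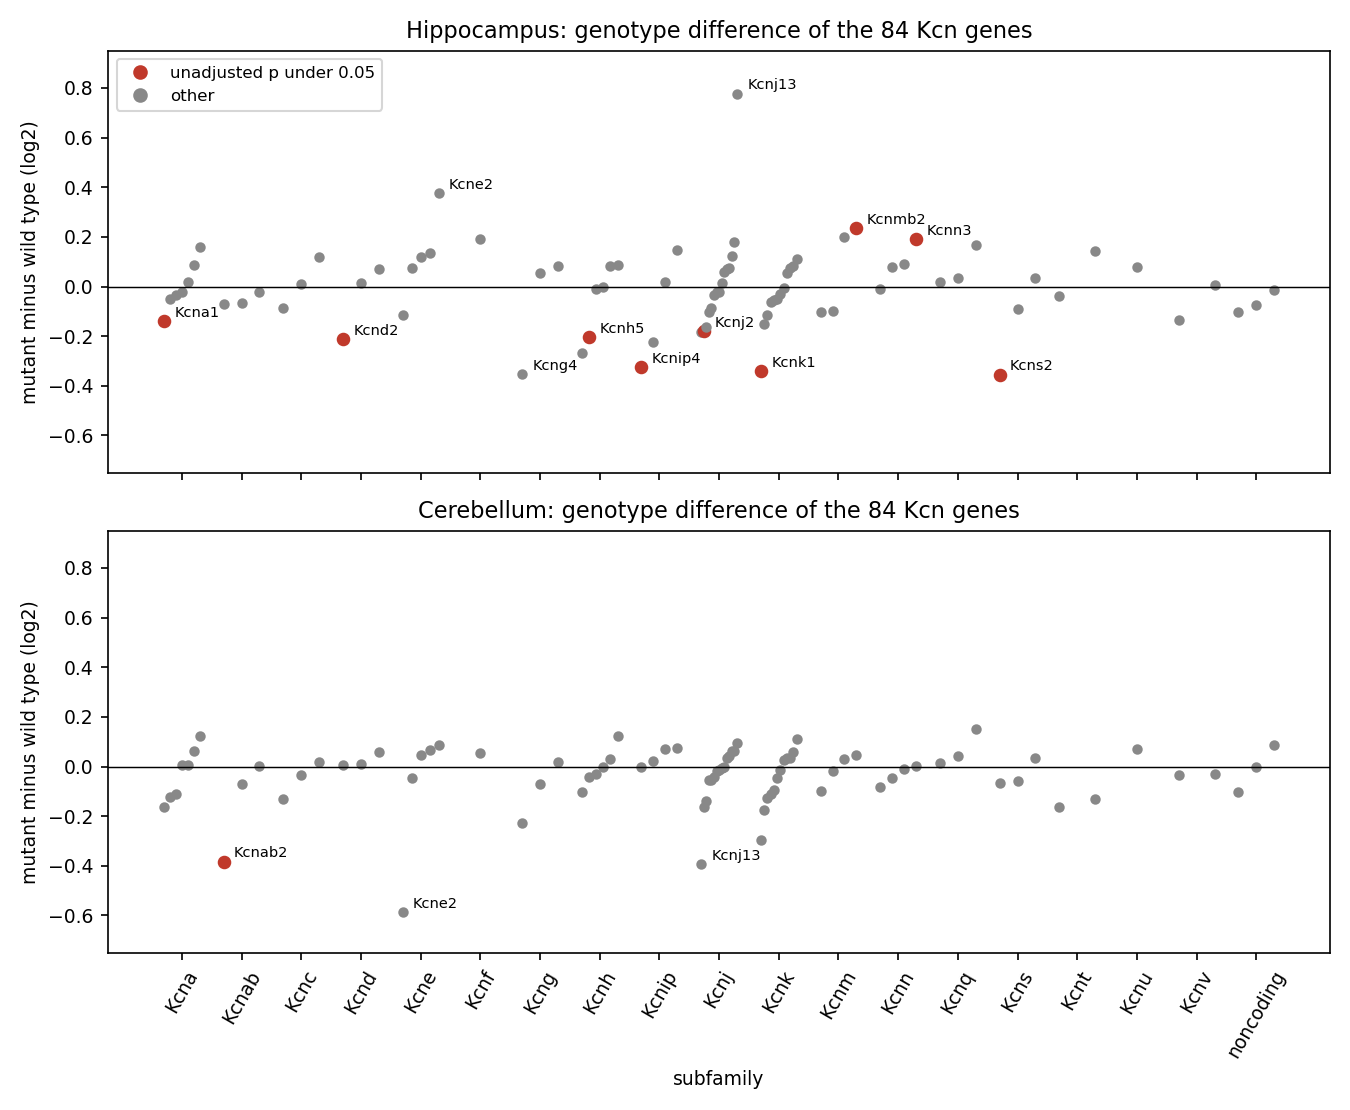
Difference between mutant and wild-type arrays (log2, mutant minus wild type) for each of the 84 potassium channel genes, grouped by subfamily, in the hippocampus (top) and the cerebellum (bottom). Each point is 1 gene and red points have an unadjusted limma p under 0.05. Red points number 9 in the hippocampus and 1 in the cerebellum, and Kcnj13, at 0.78, is the highest point in the hippocampus.

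By subfamily, signs were mixed. In the hippocampus 7 of 15 Kcnj genes, 4 of 12 Kcnk genes, 3 of 7 Kcna genes and 2 of 4 Kcnip genes lay above 0. In the cerebellum 5 of 15 Kcnj genes, 5 of 12 Kcnk genes, 4 of 7 Kcna genes and 3 of 4 Kcnip genes did. The 3 measured Kcnq genes, of the family that carries the M-current, lay above 0 in both regions, at 0.02 to 0.17 in the hippocampus and 0.01 to 0.15 in the cerebellum, although 2 of 3 did in the hippocampus after quantile normalization, and none of these reached an unadjusted p under 0.05. All 3 Kcnab genes, which code for the beta subunits of Kcna channels, lay below 0 in the hippocampus, between -0.07 and -0.02, and Kcnab2 turned to 0.00 without wild-type replicate 4. Over both regions, 26 of the 84 genes lay lower in mutants in both, 21 higher in both, 17 lower in hippocampus and higher in cerebellum, and 20 the reverse. Of all 18168 genes, 10692 lay above 0 in the hippocampus and 9747 in the cerebellum. The joint pattern over both regions is not given for all genes, so these counts cannot be read as particular to potassium channel genes.

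The smallest p among the 84 belonged to Kcnip4, a calcium-binding protein that joins Kcnd channels and slows their inactivation. Its values in the hippocampus were -0.09, -0.22, -0.22 and -0.05 in mutants, against 0.18, 0.13, 0.37 and 0.04 in wild types. All 4 mutant arrays lay below all 4 wild-type arrays. The difference was -0.33 (SE 0.07, 95% confidence interval -0.46 to -0.19), with an unadjusted p of 0.000125, rank 12 among all genes, and a limma adjusted p of 0.157. Its 3 probe sets gave -0.35, -0.33 and -0.29. Kcnip4 and Kcnmb1 were the 2 potassium channel genes (2.38%) whose groups did not overlap in the hippocampus, against 4.76% of all genes. In bulk tissue, fewer cells of a type and less RNA per cell cannot be told apart.

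Kcnd2 codes for the pore-forming subunit of the fast inactivating A-type current in the dendrites of hippocampal pyramidal neurons. It lay at -0.22, 0.02, -0.08 and -0.10 in mutant hippocampus, against 0.10, -0.01, 0.26 and 0.11 in wild-type hippocampus. Mutant replicate 2 overlapped wild-type replicate 2, and the other mutant arrays lay below all wild types. The difference was -0.21 (SE 0.06, unadjusted p = 0.00427, limma adjusted p = 0.426). Of its 4 probe sets, 3 gave -0.31, -0.28 and -0.28 and the remaining one 0.03.

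The promoter sequences of this pair, from 250 bases before to 50 bases after a RefSeq start on build GRCm38.p6, are shown because Kcnip4 and Kcnd2 code for partners in the same channel and both lay lower in mutant hippocampus. They are written 5′ to 3′ on the gene's strand, in lower case with any match to a searched motif in capitals. Kcnip4 has 2 starts in the RefSeq table and Kcnd2 has 1. The Kcnip4 start shown is at chr5:49285610-49285909 on the minus strand (51.0% GC), and that of Kcnd2 at chr6:21215096-21215395 on the plus strand (68.7% GC).
Kcnip4 promoter, start 1: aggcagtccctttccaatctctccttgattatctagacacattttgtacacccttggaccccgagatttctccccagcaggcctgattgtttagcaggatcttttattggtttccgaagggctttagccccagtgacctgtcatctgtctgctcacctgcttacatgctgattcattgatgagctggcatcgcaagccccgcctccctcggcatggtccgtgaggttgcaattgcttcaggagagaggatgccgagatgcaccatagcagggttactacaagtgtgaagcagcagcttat
Kcnd2 promoter: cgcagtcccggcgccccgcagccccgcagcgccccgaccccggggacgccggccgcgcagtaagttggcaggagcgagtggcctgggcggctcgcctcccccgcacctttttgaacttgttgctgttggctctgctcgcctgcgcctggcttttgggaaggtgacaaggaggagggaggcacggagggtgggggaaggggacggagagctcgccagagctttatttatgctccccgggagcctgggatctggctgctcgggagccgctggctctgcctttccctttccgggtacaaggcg

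Neither sequence holds a match, on either strand, to the 4 motifs searched. These were the TATA box TATAAA, the homeodomain motif GGATTA, the cyclic AMP response element TGACGTCA and the E-box CAGCTG. A missing match says only that these letters are not in this window. Of the 84 genes, 64 had an entry in the RefSeq table, with 89 promoters of 32851 in all. TATAAA was found in 5 of the 89 (5.62%), against 13.6% of all promoters, and GGATTA in 2 (2.25%), against 7.06%. TGACGTCA was in 0 of 89 against 1.79% of all promoters, and CAGCTG in 24 (27.0%) against 16.3%. The median GC content was 58.0% for the 89 potassium channel promoters (range 36.7% to 79.0%) and 52.7% for all.

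The other members of the A-type complex differed in either direction in the hippocampus. Kcnd1, a pore subunit, was at 0.10, 0.08, -0.02 and -0.02 in mutants, against -0.01, -0.05, -0.04 and -0.02 in wild types, a difference of 0.07. Kcnd3, the remaining pore subunit, was at 0.01, 0.03, 0.03 and -0.08 in mutants, against 0.23, -0.05, -0.17 and -0.07 in wild types, a difference of 0.01. Kcnip1, a calcium-binding accessory protein like Kcnip4, was at 0.03, 0.03, -0.04 and 0.03 in mutants, against 0.16, -0.05, -0.12 and -0.01 in wild types, a difference of 0.02. In these genes the groups overlapped and the limma adjusted p was 0.766 or more.

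Kcnip2, another of these proteins, was at -0.10, 0.06, 0.07 and 0.04 in mutants, against -0.83, -0.03, 0.23 and 0.11 in wild types, a difference of 0.15. Kcnip3, also known as the transcriptional repressor DREAM, was at 0.12, -0.03, -0.11 and 0.08 in mutants, against 1.12, 0.00, -0.17 and -0.01 in wild types, a difference of -0.22. Wild-type replicate 1 was the lowest array for Kcnip2 and the highest for Kcnip3, and without it both signs turned, to -0.09 for Kcnip2 and 0.07 for Kcnip3. Dpp6, a transmembrane partner that speeds Kcnd channels, was at -0.04 (SE 0.09) and turned to 0.02 without mutant replicate 1. Dpp10, its close relative, was at 0.19 (SE 0.21) with wild-type replicate 3 at -1.09, and at -0.12 without that array.

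In the cerebellum, Kcnip4 lay at 0.03, 0.07, -0.06 and 0.06 in mutants, against -0.06, -0.05, -0.08 and 0.00 in wild types, a difference of 0.07 (SE 0.07, limma adjusted p = 0.935). Kcnd2 lay at 0.01, 0.02, 0.00 and 0.11 in mutants, against -0.09, -0.06, 0.01 and 0.05 in wild types, a difference of 0.06 (SE 0.06, limma adjusted p = 0.937). Both genes overlapped between the groups.

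For the rest of the complex the cerebellar differences were small. Kcnd1 was at 0.13, -0.05, 0.03 and -0.08 in mutants, against -0.04, -0.09, 0.07 and 0.05 in wild types, a difference of 0.01, and Kcnd3 at 0.02, -0.01, 0.10 and -0.01 in mutants, against 0.03, 0.19, -0.11 and -0.04 in wild types, a difference of 0.01. Kcnip1 was at -0.00, 0.04, -0.00 and 0.00 in mutants, against 0.01, 0.00, -0.06 and -0.00 in wild types, a difference of 0.02. All groups overlapped here. Kcnip2 was at -0.10, 0.19, -0.01 and 0.07 in mutants, against -0.09, 0.06, -0.12 and -0.00 in wild types, a difference of 0.07, and Kcnip3 at 0.00, 0.04, 0.05 and -0.07 in mutants, against 0.07, -0.10, 0.08 and -0.01 in wild types, a difference of -0.00, again with overlap.

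**Figure D2:**
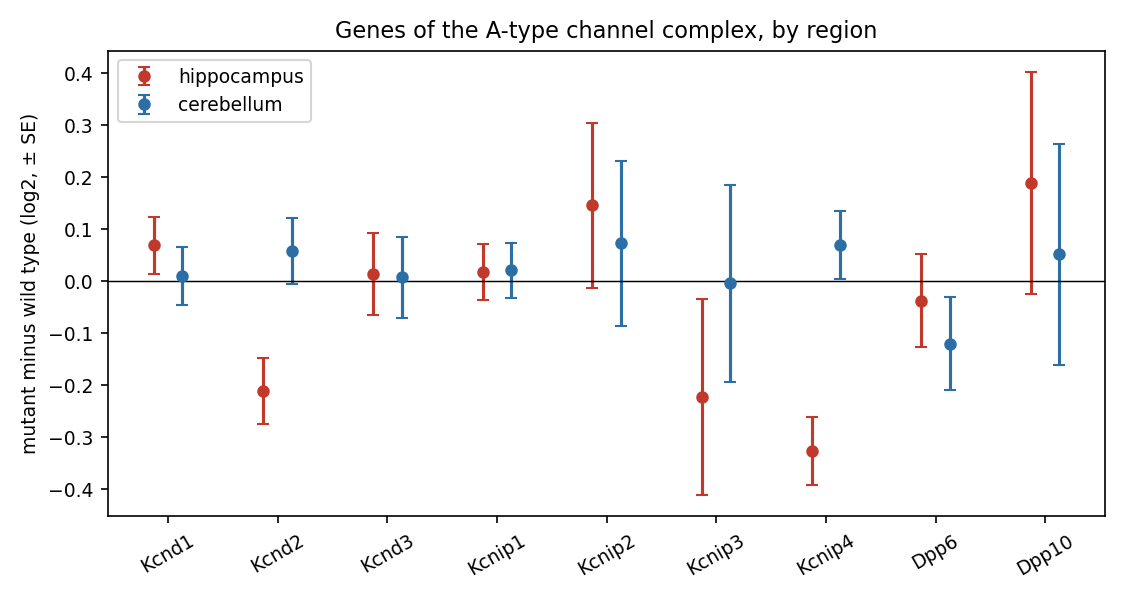
Difference between mutant and wild-type arrays (log2, mutant minus wild type) with its standard error for the genes of the A-type channel complex, the 3 Kcnd pore subunits, the 4 Kcnip proteins and their partners Dpp6 and Dpp10, in each region. Kcnip4 (-0.33) and Kcnd2 (-0.21) lie below 0 in the hippocampus and at 0.07 and 0.06 in the cerebellum.

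Marker lists of several cell types were also compared between genotypes in the hippocampus. The 8 dentate granule neuron markers, all measured, averaged -0.13, -0.14, 0.03 and -0.16 in mutant hippocampus, against -0.13, 0.04, 0.41 and 0.12 in wild-type hippocampus. Of these 8, 6 lay lower in mutants (median difference -0.21), 3 of them at an unadjusted p under 0.05. Of all genes, 2.75% lay lower at that p. The 10 pyramidal neuron markers averaged -0.02, 0.10, -0.07 and -0.09 in mutants, against -0.73, 0.19, 0.37 and 0.02 in wild types, and their groups overlapped, with 4 of 10 above 0 and a median difference of -0.03. Wild-type replicate 3 was the highest array for both lists and for Kcnip4 and Kcnd2. Without it, Kcnip4 differed by -0.26 and Kcnd2 by -0.16.

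Other lists lay higher or lower in mutants. Ependymal cell markers, from the lining of the ventricles, averaged -0.04, 0.28, 0.49 and 0.56 in mutant hippocampus, against -0.28, -0.05, -0.05 and -0.22 in wild-type hippocampus, and the groups did not overlap. Of these 10 markers 9 lay above 0 (median 0.40), with 7 higher at an unadjusted p under 0.05. All 12 markers of meninges and fibroblasts lay above 0 (median 0.37), with 5 higher at that p. They averaged 1.09, 0.10, 0.00 and -0.12 in mutants, against -0.36, -0.06, -0.07 and -0.01 in wild types. Of 12 interneuron markers 9 lay above 0 (median 0.17), also with 5 higher. These averaged 0.08, 0.02, 0.07 and 0.10 in mutants, against 0.16, -0.04, -0.21 and -0.04 in wild types. Both lists overlapped between the groups. Of all genes, 5.28% lay higher at that p and 2.75% lower. Immediate early genes, which neurons switch on with activity, lay lower for 12 of 14 (median -0.35), with 2 at that p and array averages between -0.43 and 0.64 in mutants, against averages between -0.51 and 1.11 in wild types. Of 7 listed blood cell markers 5 were measured. They averaged -0.04, -0.12, -0.06 and -0.20 in mutants, against 0.05, 0.04, 0.54 and 0.25 in wild types. For blood cell markers the groups did not overlap in the hippocampus, nor in the cerebellum. The part of these lists in the channel differences was not tested.

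Among the silent and leak channel subunits, 2 genes lay lower in mutant hippocampus at an unadjusted p under 0.05, with wild-type replicates 1 and 3 the highest arrays. Others lay lower without reaching that p, such as the silent subunit Kcng4 at -0.35, with wild-type replicate 1 at 1.41. Kcns2, a silent subunit that modifies Kcnb channels, was at -0.05, -0.09, -0.20 and 0.04 in mutants, against 0.66, -0.08, 0.45 and 0.10 in wild types. Kcnk1, a tandem-pore leak channel, was at -0.05, -0.16, -0.21 and 0.04 in mutants, against 0.68, -0.04, 0.28 and 0.07 in wild types. For both genes the groups overlapped through wild-type replicate 2. The differences were -0.35 for Kcns2 (SE 0.12, limma adjusted p = 0.494) and -0.34 for Kcnk1 (SE 0.12, limma adjusted p = 0.517). Without wild-type replicate 1, the array with high cerebellar markers, Kcns2 differed by -0.23 and Kcnk1 by -0.20, and without wild-type replicates 1 and 3 by -0.08 and -0.11.

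The calcium-activated channels gave the 2 potassium channel genes that lay higher in mutant hippocampus at an unadjusted p under 0.05. Kcnmb2, a beta subunit that makes the large-conductance channel inactivate, was at 0.01, 0.25, 0.21 and 0.08 in mutants, against -0.02, -0.05, -0.34 and 0.02 in wild types. Mutant replicate 1 overlapped the wild types, and the difference was 0.23 (SE 0.08, limma adjusted p = 0.494), or 0.15 without wild-type replicate 3. Kcnn3, a small-conductance channel, was at 0.17, 0.18, 0.10 and -0.07 in mutants, against -0.31, -0.07, -0.05 and 0.05 in wild types. The groups overlapped through mutant replicate 4, and the difference was 0.19 (SE 0.08, limma adjusted p = 0.553), or 0.12 without wild-type replicate 1.

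Kcnmb1, the beta subunit best known from smooth muscle, was at 0.07, 0.09, 0.09 and 0.05 in mutant hippocampus, against -0.38, -0.02, -0.02 and -0.09 in wild-type hippocampus. The groups did not overlap, with a difference of 0.20 (SE 0.10, limma adjusted p = 0.613) that was 0.11 without wild-type replicate 1. Its 2 probe sets disagreed in size, at 0.38 and 0.02. Kcnma1, the pore of the large-conductance channel, differed by -0.10 (SE 0.09, limma adjusted p = 0.772), or -0.07 without wild-type replicate 4, and Kcnmb4, its main neuronal beta subunit, by -0.10 (SE 0.06).

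The 3 remaining genes at an unadjusted p under 0.05 in the hippocampus lay lower in mutants by small amounts. Kcnj2, a strong inward rectifier, was at -0.09, -0.07, -0.26 and 0.07 in mutants, against 0.07, 0.16, -0.08 and 0.22 in wild types, a difference of -0.18 (SE 0.08, limma adjusted p = 0.595). Kcna1, an axonal Shaker-type channel whose loss causes episodic ataxia, was at -0.07, 0.06, 0.02 and -0.13 in mutants, against 0.23, 0.06, 0.17 and -0.02 in wild types, a difference of -0.14 (SE 0.06, limma adjusted p = 0.613). Kcnh5, an ether-a-go-go channel, was at -0.46, -0.09, -0.01 and 0.01 in mutants, against 0.01, -0.04, 0.13 and 0.15 in wild types, a difference of -0.20 (SE 0.09, limma adjusted p = 0.613), or -0.09 without mutant replicate 1. In all 3 the groups overlapped, and Kcna1 differed by -0.03 without wild-type replicate 1 and mutant replicates 1 and 4.

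Among genes with larger p that lay higher in mutant hippocampus, Kcnf1, a silent subunit, was at -0.09, 0.04, 0.09 and 0.12 in mutants, against -0.29, 0.16, -0.45 and -0.03 in wild types. Its difference was 0.19, or 0.30 without wild-type replicate 2 and 0.09 without wild-type replicate 3. Kcne1, an accessory subunit of Kcnq1, was at 0.03, 0.03, 0.13 and 0.11 in mutants, against -0.17, -0.12, 0.14 and -0.04 in wild types. Its difference was 0.12, or 0.08 without wild-type replicate 1 and 0.18 without wild-type replicate 3, and its 2 probe sets had opposite signs, at -0.08 and 0.32. Kcnk13, a tandem-pore channel, was at -0.04, 0.07, 0.07 and 0.17 in mutants, against -0.04, 0.01, -0.07 and -0.06 in wild types, a difference of 0.11. In these genes the groups overlapped.

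**Figure D3:**
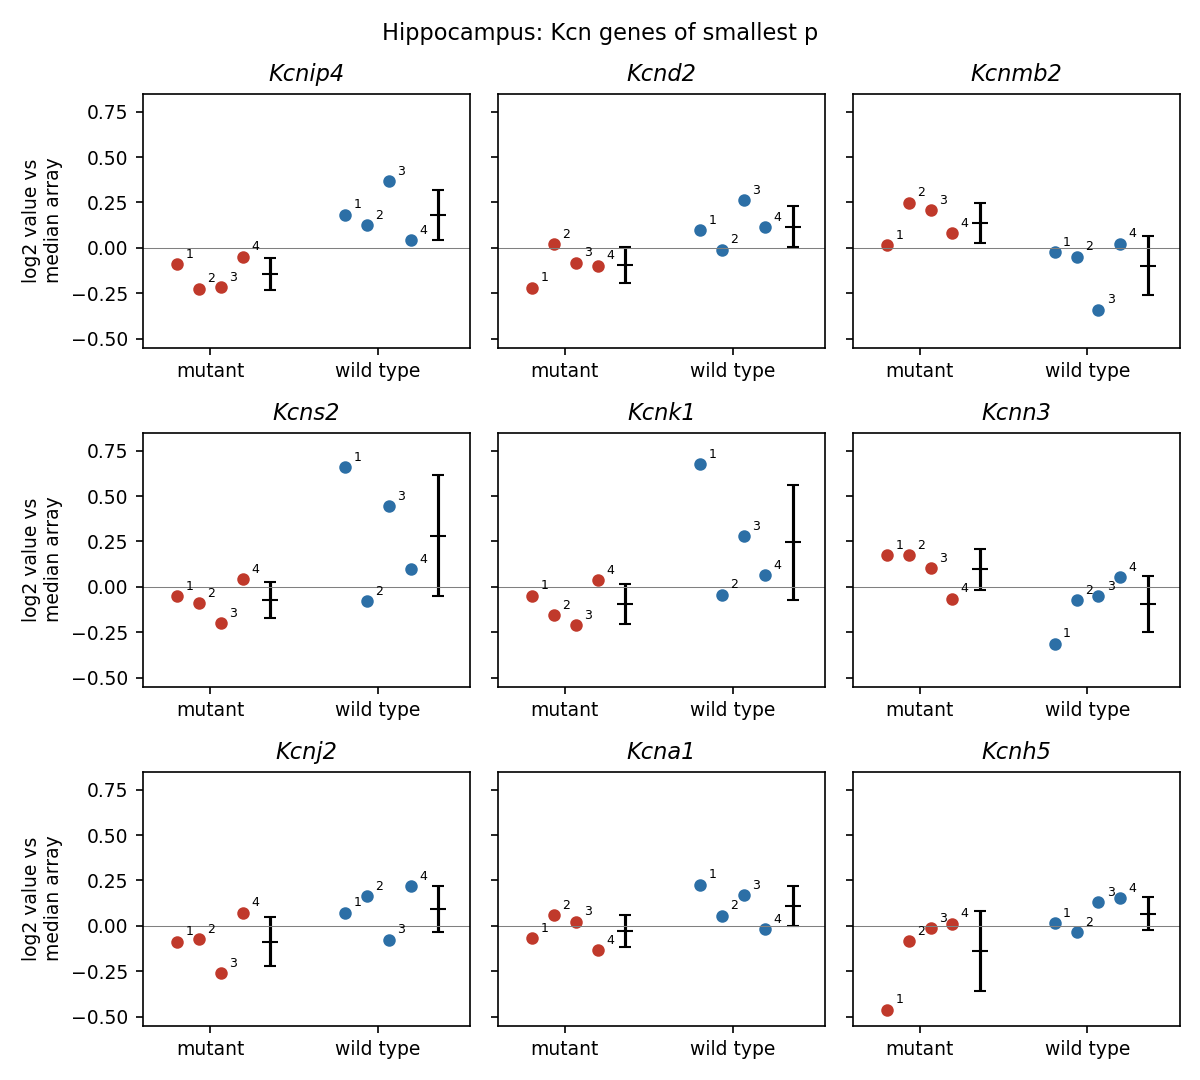
Values of 9 potassium channel genes on each hippocampus array (log2, relative to the middle array of the region), mutants left and wild types right. Digits mark the replicate number and bars the mean and SD of 4 arrays. Kcnip4 shows no overlap between genotypes, while in Kcns2 and Kcnk1 wild-type replicates 1 and 3 lie above all other arrays.

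In the cerebellum the potassium channel gene of smallest p was Kcnab2, the beta subunit that carries Kcna channels to the axon. It was at -0.01, -0.38, 0.10 and -0.44 in mutants, against -0.05, 0.18, 0.70 and -0.01 in wild types. The groups overlapped, with mutant replicate 3 above wild-type replicates 1 and 4. The difference was -0.38 (SE 0.17, unadjusted p = 0.034, limma adjusted p = 0.884), and its 2 probe sets gave -0.25 and -0.51. Without wild-type replicate 3 it was -0.22, and without mutant replicates 2 and 4 it was -0.16.

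Kcnk3, the acid-sensitive leak channel found in cerebellar granule neurons, was at -0.12, -0.47, 0.12 and -0.07 in mutant cerebellum, against -0.03, 0.05, 0.60 and 0.03 in wild-type cerebellum. Wild-type replicate 3 was again the highest, the difference was -0.30 (SE 0.15, unadjusted p = 0.0601), and it was -0.15 without that array and -0.19 without mutant replicate 2. The 11 granule neuron markers measured averaged 0.01, -0.12, 0.05 and -0.08 in mutant cerebellum, against -0.04, 0.05, 0.14 and -0.01 in wild-type cerebellum, where wild-type replicate 3 was the highest too. The part of these markers in the Kcnab2 and Kcnk3 differences was not tested.

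Kcnj11, the pore of the channel closed by ATP, was at -0.10, -0.21, 0.17 and -0.19 in mutant cerebellum, against -0.00, 0.13, 0.19 and 0.00 in wild-type cerebellum. The groups overlapped. The difference was -0.16 (SE 0.08, unadjusted p = 0.055), or -0.05 without mutant replicates 2 and 4 and -0.25 without mutant replicate 3, and in the hippocampus it was -0.02 (SE 0.08). Abcc8, the sulfonylurea receptor of that channel, differed by -0.14 in each region. Wild-type replicate 3 was the highest array for Abcc8 in both, and without it the difference was -0.02 in the cerebellum and -0.06 in the hippocampus.

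Kcnj8, the vascular pore of the same channel type, was at -0.25, 0.03, 0.09 and 0.05 in mutants, against -0.10, -0.16, 0.05 and -0.03 in wild types in the cerebellum, a difference of 0.04. It was at -0.05, -0.01, 0.18 and -0.05 in mutants, against 0.07, 0.01, -0.09 and 0.02 in wild types in the hippocampus, a difference of 0.01. Its receptor Abcc9 differed by -0.19 in the hippocampus, at -0.12, -0.17, -0.09 and -0.08 in mutants against 0.06, 0.03, 0.13 and 0.07 in wild types (unadjusted p = 0.00369, limma adjusted p = 0.426). All 4 mutant arrays lay below all 4 wild-type arrays for Abcc9 there, while Kcnj8 overlapped in both regions.

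Kcnj10, the main inward rectifier of astrocytes, was at -0.04, 0.15, -0.17 and -0.10 in mutants, against 0.20, 0.04, 0.03 and -0.03 in wild types in the hippocampus. The difference was -0.10, or -0.05 without wild-type replicate 1, -0.06 without mutant replicate 3 and -0.16 without mutant replicate 2. In the cerebellum it was at -0.06, 0.06, -0.02 and 0.02 in mutants, against -0.22, -0.07, 0.13 and 0.03 in wild types, a difference of 0.03 that turned to -0.03 without wild-type replicate 1. Its groups overlapped in both regions.

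Among genes that lay higher in mutant cerebellum, those of smallest p began with Kcnh7, an erg-type channel, at 0.11, -0.03, 0.10 and -0.00 in mutants, against -0.12, 0.01, -0.21 and 0.00 in wild types. Its difference was 0.12, or 0.08 without wild-type replicate 3. Kcnq1, a subunit best known from heart and inner ear, was at 0.07, -0.07, 0.13 and 0.16 in mutants, against -0.16, -0.09, -0.17 and 0.11 in wild types, a difference of 0.15. Kcne1, its accessory subunit, was at 0.09, 0.02, 0.05 and 0.01 in mutants, against -0.07, 0.06, -0.15 and -0.01 in wild types, a difference of 0.09, or 0.05 without wild-type replicate 3. The groups overlapped in each. Kcna7, a Shaker-type channel, was at 0.13, 0.10, 0.06 and -0.17 in mutants, against -0.01, 0.01, -0.33 and -0.04 in wild types, a difference of 0.12, or 0.04 without wild-type replicate 3 and 0.19 without mutant replicate 4. Kcnj1, a channel best known from kidney, was at 0.08, -0.00, 0.09 and 0.01 in mutants, against 0.02, 0.00, -0.04 and -0.05 in wild types, a difference of 0.06. Each of these genes overlapped and had a limma adjusted p of 0.884 or more.

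Among those that lay lower, Kcna1 was at -0.09, -0.04, -0.07 and -0.00 in mutants, against -0.01, 0.00, 0.14 and 0.17 in wild types in the cerebellum, a difference of -0.12. Mutant replicate 4, at -0.0031, lay above wild-type replicate 1, at -0.0120, and the other mutant arrays lay below all wild types. Kcnk7, a tandem-pore subunit, was at -0.05, 0.02, -0.03 and -0.06 in mutants, against 0.05, 0.08, -0.02 and 0.20 in wild types, a difference of -0.11, or -0.07 without wild-type replicate 4. Kcnt2, a sodium-activated channel, was at -0.12, -0.00, -0.09 and 0.00 in mutants, against 0.04, 0.18, -0.01 and 0.09 in wild types in the cerebellum, a difference of -0.13. In the hippocampus Kcnt2 was at -0.22, -0.01, 0.26 and -0.02 in mutants, against -1.17, 0.01, 0.34 and 0.24 in wild types, a difference of 0.14 that turned to -0.20 without wild-type replicate 1. Kcnab2, the gene of smallest p in the cerebellum, was in the hippocampus at -0.01, 0.01, -0.19 and -0.02 in mutants, against -0.39, -0.00, 0.23 and 0.23 in wild types, a difference of -0.07, or -0.20 without wild-type replicate 1. All these groups overlapped.

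Of 21 listed partner proteins of potassium channels, 19 were measured. In the hippocampus 8 lay above 0 (42.1%, against 58.9% of all genes) and 11 below, with a median of -0.02. Of the 19, 1 (5.26%, against 8.03% of all genes) had an unadjusted p under 0.05, the Abcc9 value given above. In the cerebellum 8 lay above (42.1%, against 53.6% of all genes) and 11 below, with a median of -0.04. Again 1 (5.26%, against 5.39% of all genes) had an unadjusted p under 0.05, Dlg4, the synaptic scaffold that binds Kcna channels, at -0.22. Among 37 subunits of other voltage-gated cation channels, 18 (48.6%) lay above 0 and 19 below in the hippocampus (median -0.01). At an unadjusted p under 0.05, 1 lay higher (2.70%, against 5.28% of all genes) and 3 lower (8.11%, against 2.75%). In the cerebellum 6 (16.2%) lay above and 31 below (median -0.05), with 0 higher (against 3.15% of all genes) and 1 lower (2.70%, against 2.24%) at that p. Here 0 of the partner and other channel genes had an adjusted p under 0.05.

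The difference between the regions was tested in itself, as the genotype difference in hippocampus minus that in cerebellum. The test took all 16 arrays as separate samples. The labels do not say whether same-numbered arrays of both regions share an animal, and a pairing of that kind was not modelled. Of the 84 genes 0 passed, as 0% of all genes did, and 4 (4.76%) had an unadjusted p under 0.05, against 5.35% of all genes. Kcnip4 stood at -0.40 (SE 0.09, unadjusted p = 0.000541, limma adjusted p = 0.867) and Kcnd2 at -0.27 (SE 0.09, limma adjusted p = 0.867). Kcnmb2 stood at 0.25, with cerebellar values of -0.03, 0.07, -0.04 and -0.00 in mutants, against -0.02, -0.03, -0.02 and 0.14 in wild types. Kcna3, a Shaker-type channel, stood at 0.32, or 0.21 without mutant cerebellum replicates 2 and 4. Kcna3 was at -0.00, -0.14, 0.18 and 0.27 in mutant hippocampus, against -0.09, 0.00, -0.33 and 0.09 in wild-type hippocampus, and at -0.14, -0.25, 0.10 and -0.24 in mutant cerebellum, against 0.01, 0.08, 0.04 and -0.01 in wild-type cerebellum. Its groups overlapped in both regions.

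For the next genes by p in each direction the cerebellar difference lay between -0.06 and 0.03. Kcnk13 stood at 0.15, with -0.02, -0.02, 0.10 and -0.01 in mutants, against 0.05, -0.01, 0.04 and 0.15 in wild types in the cerebellum. Kcnn3 stood at 0.20, or 0.13 without wild-type hippocampus replicate 1, with -0.07, -0.05, 0.06 and 0.06 in mutants, against 0.03, -0.06, -0.03 and 0.10 in wild types in the cerebellum. Kcns2 stood at -0.30, or -0.17 without the same array, with -0.06, -0.03, -0.02 and -0.11 in mutants, against 0.09, 0.00, -0.15 and 0.06 in wild types in the cerebellum. Kcnh5 stood at -0.23, or -0.12 without mutant hippocampus replicate 1, with -0.19, 0.15, 0.01 and 0.02 in mutants, against -0.06, -0.01, -0.12 and 0.06 in wild types in the cerebellum. None of these 4 reached an unadjusted p under 0.05, and all overlapped in the cerebellum.

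With both regions averaged for each genotype and replicate number, 0 of 84 genes passed and 6 (7.14%) had an unadjusted p under 0.05, against 8.51% of all genes. The groups did not overlap for 3 genes (3.57%), against 5.17% of all genes. Kcna1 averaged -0.08, 0.01, -0.02 and -0.07 in mutants, against 0.11, 0.03, 0.16 and 0.07 in wild types, a difference of -0.13 (SE 0.04, limma adjusted p = 0.534). Its probe sets differed in sign, at -0.22, -0.23, 0.05 and -0.15 in the hippocampus and -0.34, -0.19, 0.12 and -0.08 in the cerebellum. Kcne1 averaged 0.06, 0.03, 0.09 and 0.06 in mutants, against -0.12, -0.03, -0.01 and -0.03 in wild types, a difference of 0.10 (SE 0.04, limma adjusted p = 0.56), although its probe sets had opposite signs in the hippocampus. Kcnip4, the other such gene, averaged -0.03, -0.08, -0.14 and 0.00 in mutants, against 0.06, 0.04, 0.14 and 0.02 in wild types, a difference of -0.13 (SE 0.04, limma adjusted p = 0.551). The average combines a hippocampal difference of -0.33 with a cerebellar one of 0.07.

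The next genes by p of the average overlapped. Kcnk1 averaged -0.04, -0.15, -0.00 and -0.02 in mutants, against 0.35, 0.06, 0.26 and -0.00 in wild types, a difference of -0.22. Kcns2 averaged -0.06, -0.06, -0.11 and -0.04 in mutants, against 0.37, -0.04, 0.15 and 0.08 in wild types, a difference of -0.21, or -0.13 without the arrays of wild-type replicate 1. Kcnh7 averaged 0.07, 0.02, 0.04 and 0.02 in mutants, against -0.10, -0.08, -0.13 and 0.05 in wild types, a difference of 0.10. These 3 had an unadjusted p under 0.05. Kcnmb1 averaged 0.06, 0.03, 0.17 and -0.00 in mutants, against -0.14, -0.14, -0.02 and 0.06 in wild types, a difference of 0.12. Kcnj16, which forms mixed channels with Kcnj10 in glia, averaged 0.01, 0.23, -0.05 and 0.06 in mutants, against -0.11, 0.01, -0.20 and 0.00 in wild types, a difference of 0.14, or 0.08 without the arrays of mutant replicate 2.

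The widest spread over the arrays belonged to 2 genes of the choroid plexus, the secretory epithelium in the ventricles that can be carried along in a dissection. Kcnj13, an inward rectifier of that epithelium, was at 0.63, -1.09, -0.20 and 2.60 in mutant hippocampus, against 0.74, 0.20, -1.003 and -1.10 in wild-type hippocampus. Kcne2, an accessory subunit found there, was at -0.05, -0.16, 0.05 and 2.76 in mutants, against 1.17, 0.95, -0.36 and -0.67 in wild types. Mutant replicate 4 was far above the other arrays for both genes. Over the 8 hippocampus arrays Kcnj13 spanned 3.70 and Kcne2 3.43, against 0.305 for the median gene.

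In the cerebellum, mutant replicate 4 was instead the lowest array for both genes. Kcnj13 was at -0.22, 0.22, 0.24 and -1.44 in mutants, against 0.86, -0.50, -0.23 and 0.23 in wild types, and Kcne2 at -0.14, 0.30, 0.14 and -2.61 in mutants, against 0.86, -0.81, -0.16 and 0.15 in wild types. The 13 measured choroid plexus markers averaged -0.12, -0.27, 0.22 and 1.62 in mutant hippocampus, against 0.65, 0.23, -0.23 and -0.31 in wild-type hippocampus. They averaged -0.07, 0.11, 0.06 and -1.05 in mutant cerebellum, against 0.52, -0.35, -0.05 and 0.25 in wild-type cerebellum. The array with the highest and the array with the lowest marker mean were thus the same as for Kcne2.

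The genotype differences of these 2 genes turned or shrank without those arrays. Kcnj13 differed by 0.78 (SE 0.63, limma adjusted p = 0.767) in the hippocampus and by 0.07 without mutant replicate 4. In the cerebellum it differed by -0.39 (SE 0.63) and by -0.01 without mutant replicate 4. Kcne2 differed by 0.38 (SE 0.69) in the hippocampus and by -0.33 without mutant replicate 4, and by -0.59 (SE 0.69) in the cerebellum and 0.09 without mutant replicate 4.

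**Figure D4:**
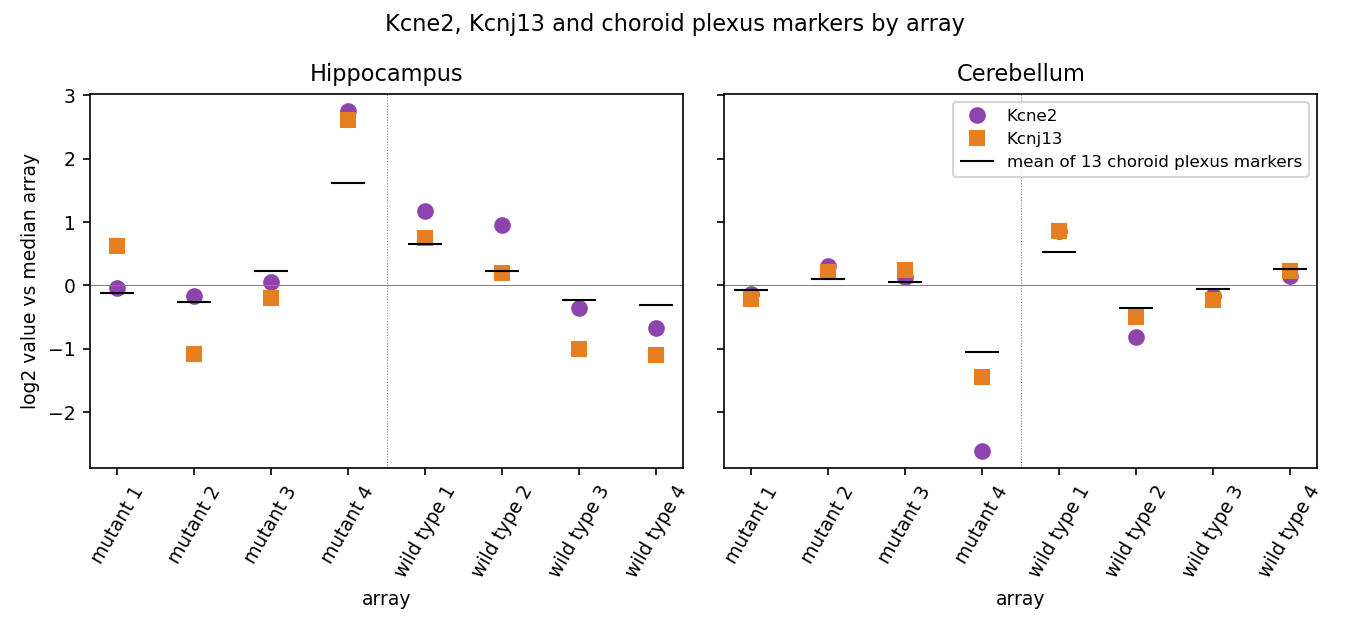
Values of Kcne2 and Kcnj13 and the mean of 13 choroid plexus markers (log2, relative to the middle array of the region) on the 16 arrays. Mutant hippocampus replicate 4 is the highest array for all 3 measures and mutant cerebellum replicate 4 the lowest.

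The promoters of both genes are printed because these genes showed the widest spread. The Kcnj13 promoter lies at chr1:87394680-87394979 on the minus strand (46.0% GC) and holds CAGCTG at position 196 and TATAAA at position 222, counted from 1 at the 5′ end and shown in capitals. The Kcne2 promoter, at the first of 2 starts in the RefSeq table, lies at chr16:92292139-92292438 on the plus strand (53.0% GC) and holds no match to the 4 motifs.
Kcnj13 promoter: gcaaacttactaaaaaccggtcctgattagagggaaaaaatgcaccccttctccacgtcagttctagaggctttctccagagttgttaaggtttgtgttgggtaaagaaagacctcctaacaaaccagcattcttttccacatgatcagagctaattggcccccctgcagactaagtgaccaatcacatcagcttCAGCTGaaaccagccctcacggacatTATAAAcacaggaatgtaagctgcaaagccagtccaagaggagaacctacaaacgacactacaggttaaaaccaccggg
Kcne2 promoter, start 1: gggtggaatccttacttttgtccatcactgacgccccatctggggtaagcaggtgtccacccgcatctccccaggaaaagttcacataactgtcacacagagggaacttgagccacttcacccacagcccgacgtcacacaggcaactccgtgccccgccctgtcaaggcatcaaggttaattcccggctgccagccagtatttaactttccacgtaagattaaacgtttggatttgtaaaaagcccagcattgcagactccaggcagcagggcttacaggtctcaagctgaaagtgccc

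Wild-type hippocampus replicate 1, with its high cerebellar markers, gave extreme values for many potassium channel genes. It was the highest or lowest of the 8 hippocampus arrays for 47 of the 84 genes (56.0%), against 41.9% of all genes. The SD over all genes on that array was 0.26, wider than on any other hippocampus array. The share of all genes beyond 0.5 there is not given. On that array 14 potassium channel genes lay more than 0.5 from the middle array, 10 above and 4 below. The highest were Kcng4, a silent subunit, at 1.41, Kcne2 at 1.17, Kcnip3 at 1.12 and Kcnj12, an inward rectifier, at 0.99. On the other 7 hippocampus arrays Kcng4 stayed between -0.09 and 0.04, Kcnip3 between -0.17 and 0.12, and Kcnj12 between -0.12 and 0.07, while Kcne2 ranged between -0.67 and 2.76.

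The lowest there were Kcnt2, a sodium-activated channel, at -1.17, Kcnip2 at -0.83, Kcnq3, an M-current subunit, at -0.57 and Kcng2, a silent subunit, at -0.52. Kcnh1, an ether-a-go-go channel, was at 0.83 and Kcnt1, the other sodium-activated channel, at 0.73. Of the 14, all but Kcne2 and Kcnj13 lay outside the range of the other 7 arrays. In the cerebellum the array with most extreme values was wild-type replicate 3, with 40 of 84 genes (47.6%) highest or lowest, against 39.5% of all genes.

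**Figure D5:**
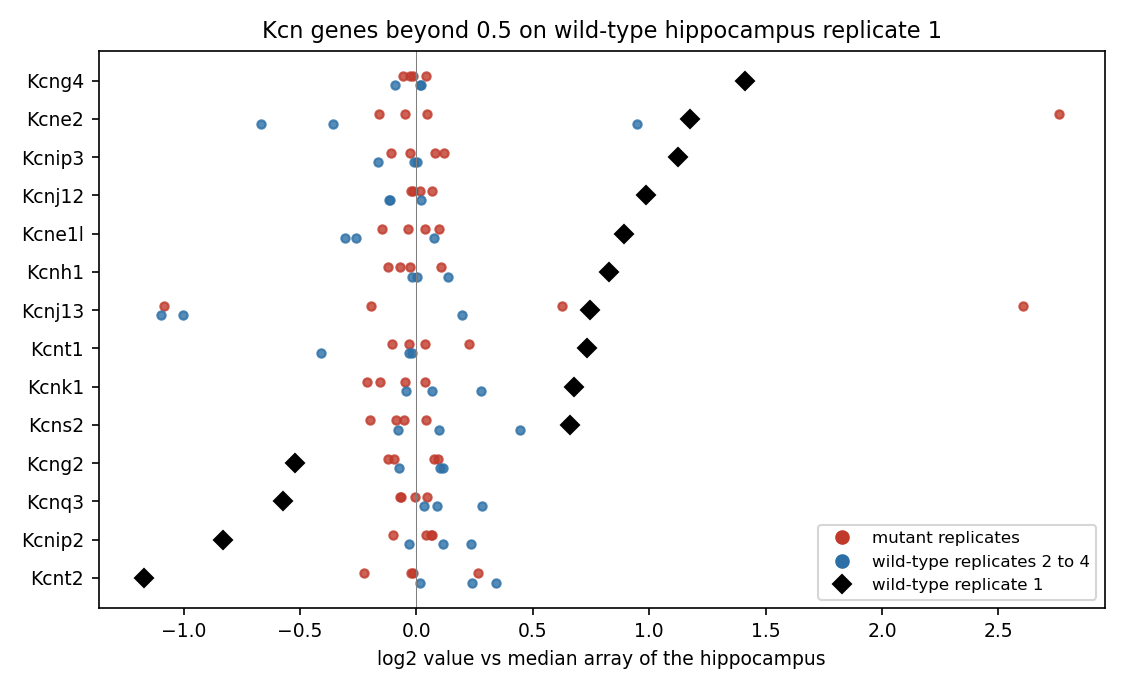
The 14 potassium channel genes that lie more than 0.5 (log2) from the middle array on wild-type hippocampus replicate 1, shown with the other 7 hippocampus arrays. Kcng4 at 1.41 is the highest and Kcnt2 at -1.17 the lowest.

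Age was compared within each region between arrays of animals of 24 months or more and of 23 months or less, with genotype in the model. The age classes are also replicates 1 and 2 against replicates 3 and 4, so anything else that set those arrays apart cannot be told apart from age. Of the 84 genes 0 passed in either region, as 0% of all genes did. At an unadjusted p under 0.05 there were 8 genes (9.52%) in the hippocampus, against 6.55% of all genes, and 3 (3.57%) in the cerebellum, against 4.21% of all genes.

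In the hippocampus Kcnk6, a tandem-pore channel, was at -0.07, 0.23, 0.43 and 0.17 in the older animals (mutant replicates 1 and 2, then wild-type replicates 1 and 2), against -0.04, -0.21, 0.04 and -0.13 in the younger. The groups overlapped through mutant replicate 1, and the difference was 0.27 (SE 0.09, limma adjusted p = 0.601). Kcnt2 was at -0.22, -0.01, -1.17 and 0.01 in the older, against 0.26, -0.02, 0.34 and 0.24 in the younger, a difference of -0.55 (SE 0.19, limma adjusted p = 0.642) that was -0.25 without wild-type replicate 1, and the age classes overlapped. Wild-type replicate 1 was also the extreme array in the next pair. Kcnt1 was at 0.23, -0.03, 0.73 and -0.03 in the older, against -0.10, 0.04, -0.41 and -0.02 in the younger, a difference of 0.35 that was 0.15 without that array and 0.23 without wild-type replicate 3. Kcnip2 was at -0.10, 0.06, -0.83 and -0.03 in the older, against 0.07, 0.04, 0.23 and 0.11 in the younger, a difference of -0.34 that was -0.13 without wild-type replicate 1.

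The others at an unadjusted p under 0.05 overlapped too. Kcnj4, an inward rectifier, was at 0.14, -0.04, 0.22 and 0.31 in the older, against -0.12, -0.12, -0.05 and 0.04 in the younger, a difference of 0.22. Kcnj10 was at -0.04, 0.15, 0.20 and 0.04 in the older, against -0.17, -0.10, 0.03 and -0.03 in the younger, a difference of 0.15. Kcnh5 was at -0.46, -0.09, 0.01 and -0.04 in the older, against -0.01, 0.01, 0.13 and 0.15 in the younger, a difference of -0.21, or -0.13 without mutant replicate 1. Kcne1 was at 0.03, 0.03, -0.17 and -0.12 in the older, against 0.13, 0.11, 0.14 and -0.04 in the younger, a difference of -0.14, with both probe sets below 0. Kcnj12 was the 1 gene (1.19%, against 3.5% of all genes) whose age classes did not overlap, at 0.34 (SE 0.16, limma adjusted p = 0.75), or 0.09 without wild-type replicate 1, which lay at 0.99.

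In the cerebellum the 3 genes lay lower in the older animals (3.57%, against 1.82% of all genes lower at that p). Kcnk3 was at -0.12, -0.47, -0.03 and 0.05 in the older, against 0.12, -0.07, 0.60 and 0.03 in the younger, a difference of -0.31 (SE 0.13, limma adjusted p = 0.999) that was -0.20 without wild-type replicate 3. Kcnk12, a silent tandem-pore subunit, was at 0.03, -0.31, -0.13 and -0.07 in the older, against 0.04, 0.01, 0.68 and -0.01 in the younger, a difference of -0.30, or -0.13 without wild-type replicate 3. Kcnj8 was at -0.25, 0.03, -0.10 and -0.16 in the older, against 0.09, 0.05, 0.05 and -0.03 in the younger, a difference of -0.16, or -0.10 without mutant replicate 1. The age classes overlapped in all 3.

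The age classes did not overlap for 2 genes (2.38%), against 2.26% of all genes. Kcna2, a partner of Kcna1 in axonal channels, was at -0.04, -0.03, -0.03 and -0.15 in the older, against 0.02, 0.02, 0.08 and 0.05 in the younger, a difference of -0.11. Kcns3, a silent subunit, was at 0.03, 0.09, 0.02 and -0.00 in the older, against -0.01, -0.07, -0.10 and -0.01 in the younger, a difference of 0.08. The genes of smallest p among those higher in the older animals overlapped between the age classes. Kcna7 was at 0.13, 0.10, -0.01 and 0.01 in the older, against 0.06, -0.17, -0.33 and -0.04 in the younger, a difference of 0.18. Kcne4, an accessory subunit, was at -0.04, 0.07, 0.03 and 0.19 in the older, against 0.06, -0.25, -0.16 and -0.03 in the younger, a difference of 0.16. Kcnv2, a silent subunit known from photoreceptors, was at 0.19, -0.05, 0.17 and 0.02 in the older, against -0.02, -0.12, -0.19 and 0.13 in the younger, a difference of 0.13, or 0.07 without wild-type replicate 3. Kcna4, an inactivating Shaker-type channel, was at -0.07, 0.14, 0.10 and -0.11 in the older, against -0.10, -0.10, -0.17 and 0.00 in the younger, a difference of 0.11, or 0.06 without mutant replicate 2.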

How the data were processed

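Total RNA from 16 tissue samples was, per the labels' protocols, extracted with Trizol, turned into biotin cRNA and hybridised to Affymetrix arrays. The submitters' processing notes name GCOS 4.0. How probes were summarised and normalized is not given in the sources used here. The deposited values are on a log scale, taken as log2, and the authors' base is not stated. Base 10 is too coarse for the widest range of a probe set, 8.91, since a 16-bit scanner covers 4.82 decades. If the base is e, differences must be multiplied by 1.44. In each region every probe set tested had its median within 1e-05 of 0, so no filter on dim probe sets was possible.

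Of 45101 probe sets, 64 controls and 133 with an empty value were left out, none of them a Kcn probe set. The 44904 others included 931 with several symbols and 9130 with none, which named no gene. Probe sets of a gene were averaged. Of the potassium channel genes, 38 rested on 1 probe set and 46 on up to 6, and of these 46 all probe sets lay on one side of 0 for 25 in the hippocampus and 21 in the cerebellum. limma 3.58.1 in R 4.3.3 (lmFit, eBayes, two-sided) was fitted to all 18168 genes and 16 arrays giving each group its own mean and leaving 12 residual degrees of freedom, and p-values were adjusted by Benjamini-Hochberg over the whole table with a threshold of 0.05. Precision is limited by the number of arrays, and for the potassium channel genes the median standard error per region was 0.0869. In the fit to 16 arrays the spread of a gene was pooled over both regions, so its standard error was the same in each. A gene can differ in spread between them. Kcnip4 spanned 0.59 over the hippocampus arrays and 0.15 over the cerebellum arrays. The labels call the samples biological replicates without naming animals, and the p-values reflect only how far these samples spread.

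Values on every array were given for the 6 Kcn genes of smallest p in each direction per region, 4 for the other comparisons, the 3 with the widest range per region, all Kcnip and Kcnd genes, Kcnj13, Kcne2, Kcnj10 and Kcnj8. Kcnmb4, Kcnma1, Kcnj12, Kcng4, Kcns3 and others outside this rule were named after their values were seen. Members and lists were chosen with earlier results of these data known. The scripts were tested on simulated data. Alternatives were other normalizations, probe set summaries and variance models, a replicate block, age as a covariate, each region alone and arrays left out.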

Additional observations from a re-analysis of the deposited data

Results flagged for a closer look

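The highest or lowest array of a group was checked for its distance from the other 3 by Dixon's ratio, for the 84 potassium channel genes in the 4 groups. This gave 336 groups of 4 arrays, of which 32 held such an array. The nominal rate of the ratio is about 1 in 20, or 16.8. The share over all genes is not given here, so the count cannot be read as particular to potassium channel genes.

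In mutant hippocampus, Kcne2 stood at 2.76 in replicate 4. In replicate 1 of that group Kcnip2 was at -0.10 and Kcnq5, an M-current subunit, at -0.19. In replicate 3 Kcnab2 was at -0.19, Kcnip1 at -0.0366 and Kcnj5, an inward rectifier, at -0.0797. In wild-type hippocampus, replicate 1 stood apart for Kcng4 at 1.41, Kcnip3 at 1.12, Kcnj12 at 0.99, Kcnk3 at 0.49 and Kcnc1, a channel of fast-firing neurons, at 0.38. Kcnj1 was at 0.13 in replicate 3.

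In mutant cerebellum, Kcne2 stood at -2.61 in replicate 4. In replicate 2 of that group Kcna4 was at 0.14, Kcnk6 at 0.25 and Kcnk12 at -0.31. In replicate 3 Kcnj4 was at 0.28, Kcnk10 at 0.13, Kcnk13 at 0.10 and Kcnh2 at 0.00179, and in replicate 1 Kcnj8 was at -0.25 and Kcnj15 at 0.0924. In wild-type cerebellum, replicate 3 stood apart for Kcnk12 at 0.68, Kcng4 at 0.63, Kcnk3 at 0.60, Kcnc2 at 0.26, Kcna7 at -0.33 and Kcnip1 at -0.0557. Replicate 4 did for Kcnmb2 at 0.14, Kcnk15 at 0.0456 and Kcnab1 at 0.0451, and replicate 2 for Kcnj9 at 0.0569. No potassium channel gene had all arrays apart in opposite directions in the 2 regions or passed the test of the difference between them.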

How the results depend on the processing

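In 147 refits over the 6 comparisons, 0 had a potassium channel gene with a limma adjusted p under 0.05. Over its 26 refits in the hippocampus, Kcnip4 lay between -0.40 and -0.23, with adjusted p between 0.0805 and 0.856, and Kcnd2 between -0.28 and -0.15, with adjusted p between 0.288 and 1. Of 693 values of named genes in refits other than those leaving out 1 array, 680 kept their sign and 13 turned.

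Counts at an unadjusted p under 0.05 moved by over 1.5 times in these cases. Those over single probe sets are out of 167 in place of 84, so the shares have to be compared. By gene the shares were 10.7% in the hippocampus, 1.19% in the cerebellum and 4.76% for the difference between regions. For the average the share was 7.14%, for age in hippocampus 9.52% and for age in cerebellum 3.57%. With every probe set on its own (167 of them) the counts were 21 in the hippocampus (12.6%, against 7.37% of all probe sets), 6 in the cerebellum (3.59%, against 5.79%), 8 for the difference between regions (4.79%, against 5.49%), 15 for the average (8.98%, against 8.17%), 14 for age in hippocampus (8.38%, against 5.97%) and 8 for age in cerebellum (4.79%, against 4.24%). In the cerebellum, where 1 was reported, they were 2 (2.38%) with age as a covariate (5.31% of all genes), 2 with the region alone (4.51%), 2 without mutant cerebellum replicates 2 and 4 (3.23%), and 2 without wild-type hippocampus replicate 1 and mutant hippocampus replicates 1 and 4 (5.79%). Without those 3 hippocampus arrays the count for age in hippocampus was 3 (3.57%, against 2.96% of all genes), where 8 were reported. Without wild-type hippocampus replicates 1 and 3, an alternative chosen after seeing the data, the hippocampus count was 4 (4.76%, against 4.72% of all genes), where 9 were reported. With the hippocampus arrays alone that count was 6 (7.14%, against 7.66% of all genes), which is not a move of over 1.5 times. Leaving out 1 array at a time gave 7 to 13 in the hippocampus (8.33% to 15.5%, while all genes had 5.87% to 9.52%) and 0 to 5 in the cerebellum (0% to 5.95%, all genes 2.98% to 8.32%). It gave 2 to 9 for the difference between regions (2.38% to 10.7%, all genes 3.69% to 7.43%), 6 to 14 for the average (7.14% to 16.7%, all genes 5.77% to 9.91%), 4 to 17 for age in hippocampus (4.76% to 20.2%, all genes 3.89% to 10.4%) and 0 to 5 for age in cerebellum (0% to 5.95%, all genes 2.71% to 7.8%). The lowest counts in the cerebellum came without mutant replicate 4 and without wild-type replicate 3, and the highest came without mutant replicate 3. For age in hippocampus the lowest came without wild-type replicate 1 and the highest without wild-type replicate 2. For the difference between regions the lowest came without mutant hippocampus replicate 3 and the highest without wild-type hippocampus replicate 1. The highest for the average came without the arrays of wild-type replicate 4. For age in cerebellum the lowest came without wild-type replicate 3 and the highest without wild-type replicate 4. The cause was not tested.

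The replicate block gave 3 genes in the cerebellum (3.57%, against 5.3% of all genes), and Kcnip4 in hippocampus kept -0.33 with an adjusted p of 0.449. Deviations of same-numbered mutant and wild-type arrays correlated between -0.067 and 0.231 in the hippocampus and between -0.192 and 0.0479 in the cerebellum. Mutants and wild types of the same number were therefore not taken as pairs. The average over regions does join cerebellum and hippocampus arrays of a genotype by number. Deviations of arrays joined in this way correlated between -0.175 and 0.167, and the labels do not say whether they share an animal.

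Signs turned in the cerebellum for Kcnd3 with medians over probe sets (-0.00332), and without mutant cerebellum replicates 2 and 4 for Kcnip2 (-0.0230), Kcnip3 (0.0165), Kcnj10 (-0.00733) and Kcnj8 (-0.0202). In the hippocampus they turned without wild-type replicate 1 and mutant replicates 1 and 4 for Kcnip2 (-0.0407), Kcnj13 (-0.00638), Kcne2 (-0.0309) and Kcnt2 (-0.0739), and without wild-type replicates 1 and 3 for Kcnf1 (-0.0247), Kcnip2 (-0.0234), Kcnip3 (0.0192) and Kcnt2 (-0.13). Leaving out 1 array spanned 0 in the cerebellum for Kcnd1 (-0.0292 to 0.0387), Kcnd3 (-0.0349 to 0.0656), Kcnip3 (-0.0416 to 0.0203), Kcne2 (-0.88 to 0.0917) and Kcnj10 (-0.0277 to 0.0891), and in the hippocampus for Kcnd3 (-0.0384 to 0.0961), Kcnip1 (-0.0197 to 0.0726), Kcnip2 (-0.0882 to 0.27), Kcnip3 (-0.36 to 0.0731), Kcne2 (-0.33 to 0.68), Kcnj8 (-0.0414 to 0.0367), Kcnab2 (-0.20 to 0.00280) and Kcnt2 (-0.20 to 0.31).

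No filter on dim probe sets was run, because it needs a level.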
